A study of Mus musculus with 4 samples.

Results

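Heat shock proteins and chaperonins help other proteins to fold, and a few of their genes are switched on by stress. Their transcripts were described here in single CD4+ T cells from the lamina propria of the small intestine, the tissue layer beneath its epithelium. Genes were taken by symbol: names starting with Hspa, Hspb, Hspd, Hspe, Hsph, Hsp90, Dnaja or Dnajb, names of the Cct2 to Cct8 series, and names starting with Tcp1, leaving out pseudogene symbols. This gave 62 of the 31053 genes in the tables. Of these, 3 (Hspa1a, Hspa1b and Dnajb1) are the classical stress-inducible genes and 50 were taken as constitutive. The remaining 9 share only the start of a name (Tcp10a, Tcp10b, Tcp10c, Tcp11, Tcp11l1, Tcp11l2, Tcp11x2, Hspbap1 and Hspb11) and are counted but are not folding proteins of these families. Cct6a was not analysed here.

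The cells had been sorted by flow cytometry as CD45+CD3+CD4+ and 7AAD-, a dye that enters dead cells, from digested tissue of wild-type C57Bl/6 mice. The 4 libraries, made with a droplet method that reads the 5′ end of each transcript, formed a single group with no treatment and no second genotype. The labels do not say that each library came from exactly 1 mouse, so a p-value here speaks only for these libraries. It sets a difference between groups of cells against how unevenly such differences recurred over the libraries. The comparisons are therefore between cells of the same libraries, set apart by the transcripts they held. A cell went to the first of these gates that it met: at least 1 unique molecular identifier (UMI, a tag that counts each captured transcript molecule once) of Foxp3, the lineage factor of regulatory T cells, then at least 1 of Il17a or at least 1 of Ifng, the cytokines that define type 17 and type 1 helper cells, then at least 10 of Gzma, a granzyme of cytotoxic lymphocytes, and otherwise the rest. These gates were drawn on transcripts, not in the sorter, and a deeper cell has more chances to show a UMI.

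Libraries 1 to 4 held 28783972, 26407082, 23918884 and 26681150 UMIs, and 5402, 5626, 5324 and 5149 cells were analysed, with median depths of 3629 to 4177 UMIs. The T cell marker Cd3e lay between 1810.1 and 1954 CPM (UMIs scaled to a common total of 1000000) and Cd4 between 349 and 380 CPM in all libraries. A list of B and plasma cell genes summed to 86.8, 603, 268 and 605 CPM over the cells of libraries 1 to 4, although the B cell gene Ms4a1 reached at most 0.264 CPM. By gate it ran from 10.3 to 29.6 CPM for Il17a and was highest at 1438 CPM for Foxp3 in library 4, and its part in the results was not tested. The Foxp3, Il17a, Ifng, Gzma and rest gates held 7.17% ± 1.24, 2.70% ± 1.06, 30.7% ± 1.63, 8.08% ± 0.739 and 51.4% ± 1.62 of the cells (mean ± SD, n = 4 libraries). Companion genes of each gating gene were higher in its own gate than in the rest: 3890 to 5322 against 1072 to 1500 CPM for the Foxp3 list, 1171 to 2568 against 232 to 347 for Il17a, 2018 to 2408 against 1180 to 1455 for Ifng, and 11048 to 18435 against 2201 to 3068 for Gzma. Between 34 and 55 cell barcodes were shared by each pair of libraries, 274 over the pairs.

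Hsp70 proteins (Hspa) bind exposed stretches of unfolded proteins and release them on ATP hydrolysis. J-domain proteins (Dnaja and Dnajb) bring them their substrates and start that hydrolysis, while Hsp110 proteins (Hsph1, Hspa4, Hspa4l) exchange the nucleotide. Hsp90 proteins mature signalling proteins such as kinases and steroid receptors, the ring-shaped CCT complex folds actin and tubulin, and Hspd1 with its lid Hspe1 folds proteins inside mitochondria. In a stressed cell the factor Hsf1 binds heat shock elements, inverted repeats of the letters GAA, and raises the inducible genes within minutes to hours. Enzymatic digestion and sorting of tissue are known to raise some of these genes in isolated cells.

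The stretches before the transcription start show how the members' promoters differ in this element. They come from RefSeq's annotation of GRCm38.p6 (mm10), with coordinates of the same build. The stretches directly upstream of the 3 inducible genes are printed because these genes are treated apart from the constitutive ones. Capitals mark a match to a 2-unit heat shock element, GAANNTTC or TTCNNGAA, each of which reads the same on both strands.
Hspa1a (chr17:34972157-34972306, minus strand): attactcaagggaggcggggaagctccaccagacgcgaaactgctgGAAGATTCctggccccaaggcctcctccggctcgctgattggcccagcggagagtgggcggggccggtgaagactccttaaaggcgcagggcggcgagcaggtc
Hspa1b (chr17:34959239-34959388, minus strand): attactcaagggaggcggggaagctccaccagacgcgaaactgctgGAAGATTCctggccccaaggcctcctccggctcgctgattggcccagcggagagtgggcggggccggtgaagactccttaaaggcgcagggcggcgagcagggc
Dnajb1 (chr8:83608025-83608174, plus strand): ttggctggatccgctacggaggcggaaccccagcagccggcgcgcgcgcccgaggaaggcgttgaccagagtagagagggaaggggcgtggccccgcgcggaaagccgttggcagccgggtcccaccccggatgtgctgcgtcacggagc

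Hspa1a and Hspa1b lie side by side on the minus strand of chromosome 17, at 34969190 to 34972156 and 34956436 to 34959238, and 149 of these 150 upstream bases were identical (99.3%). Their transcripts are near-identical too, so the split of reads between the pair is uncertain and cells are counted below by a UMI of either gene. The Dnajb1 stretch held neither form of the 2-unit element. Shorter windows of 30 bases are shown for 4 constitutive genes that carry the elements of the 2 best known stress responses. Capitals mark the 2-unit heat shock element in Hsph1, a run of overlapping heat shock elements in Hspe1, and the ER stress element (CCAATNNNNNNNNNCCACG, or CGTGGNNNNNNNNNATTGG on the other strand) in Hspa5 and Hsp90b1.
Hsph1 (chr5:149636351-149636380, minus strand): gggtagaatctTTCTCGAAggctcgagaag
Hspe1 (chr1:55088053-55088082, plus strand): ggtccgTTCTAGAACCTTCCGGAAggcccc
Hspa5 (chr2:34772019-34772048, plus strand): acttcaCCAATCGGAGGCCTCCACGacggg
Hsp90b1 (chr10:86705528-86705557, minus strand): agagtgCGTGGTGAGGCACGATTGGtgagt

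Windows from 250 bases before to 50 bases after the start were found for 55 of the 62 genes. None was at hand for Hspa8, Hsp90aa1, Hsp90ab1, Cct4, Hspa9, Hspa13 and Hspb2. A 2-unit heat shock element on either strand was in 20 of the genes with a window (36.4%), against 17.0% of the 27025 genes in the table, where a gene likewise counted if any of its windows held a match. Tcp10a, Tcp10b, Tcp10c and Tcp11l2, which share only the start of a name, are among the 20, as are the near-identical Hspa1a and Hspa1b. The stricter 3-unit form, GAANNTTCNNGAA or TTCNNGAANNTTC, which contains the 2-unit form, was in 4 genes (7.27%), Dnajb6, Hspd1, Hspe1 and Hsph1, against 0.662% of all genes. The ER stress element was in 2 genes (3.64%), Hspa5 and Hsp90b1, against 0.137%. Hspd1 and Hspe1 are neighbours on opposite strands, and the elements in the Hspe1 window also lay in the window of 1 of the 2 listed Hspd1 starts and not in that of the other. A match describes letters and is not a measured binding site.

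Levels of the members ranged from 1912 CPM on average to no UMI at all. The mean level was at least 100 CPM for 19 members and at least 20 CPM for 33, while 20 were under 1 CPM. No UMI was found in the cells analysed for 9 of those (Cct8l1, Dnajb7, Dnajb8, Hspb3, Hspb7, Hspb8, Tcp10a, Tcp10b and Tcp10c), which allows a level of up to 0.0308 CPM over all cells (3 counts). Since the 5′ tag counts each molecule once, CPM does not scale with transcript length. How well each gene was captured and its reads assigned was not measured, so the order of members by CPM is approximate.

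Among the Hsp70 genes, Hspa8, the constitutive cytosolic form, stood at 1931, 1747, 1729.6 and 2243 CPM in libraries 1 to 4 and was the most abundant member. Hspa5, the Hsp70 of the endoplasmic reticulum (ER), was next of that family at 835, 780.3, 695 and 657 CPM. The mitochondrial form Hspa9 was lower, at a mean of 77.8 CPM. The Hsp90 genes were led by Hsp90ab1, the constitutive cytosolic form, at 1753, 1682, 1637 and 2014 CPM. Hsp90aa1, the cytosolic form that stress can raise further, had 476 ± 48.4 CPM (mean ± SD, n = 4 libraries), and the ER form Hsp90b1 had 395 ± 15.4 CPM. Hspa8 and Hsp90ab1 thus lay above every other member in all 4 libraries, and the order of the pair was the same in each.

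Of the J-domain genes, Dnaja1, a main partner of cytosolic Hsp70, was the highest at 408 ± 48.9 CPM, followed by Dnajb6, which keeps aggregation-prone proteins soluble, at 302 ± 46.1 CPM, and Dnaja2 at 176 ± 2.72 CPM. The 7 CCT genes other than Cct6b and Cct8l1 lay within a narrow band, from 107 CPM for Cct3 to 214 ± 5.31 CPM for Cct2, with Cct7 second at 191 ± 5.55. Hspa4, the most abundant Hsp110 gene, had 203 ± 4.15 CPM. Hspe1 had 290 ± 37.1 CPM and its partner Hspd1 had 141 ± 16.3 CPM. Small heat shock proteins, which hold unfolded proteins without ATP, were almost absent: the highest, Hspb6, had 2.20 CPM and Hspb1 had 0.450 CPM. The plot of member levels by library shows these layers.

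**Figure D1:**
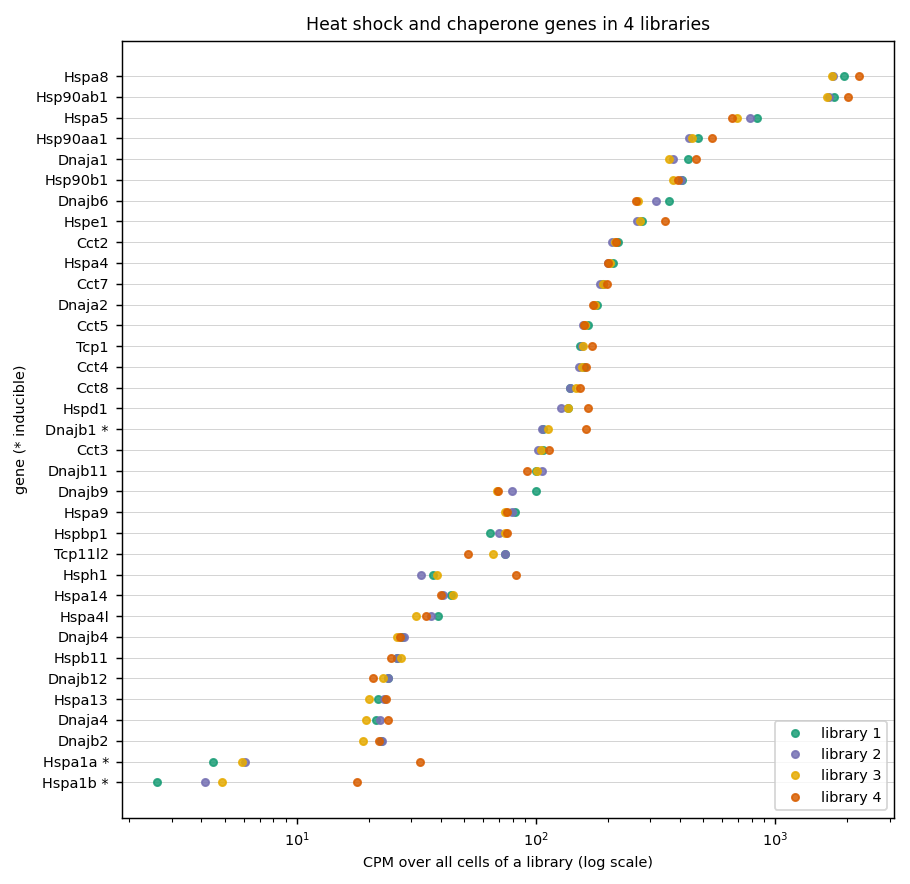
CPM over all cells of a library (log axis) for 35 members, 1 point per library. Most constitutive genes have 4 points almost on top of each other, while for Hspa1a, Hspa1b, Dnajb1 and Hsph1 the point of library 4 stands above the rest.

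Constitutive members differed little between libraries. Among the 30 constitutive genes with at least 20 CPM, the coefficient of variation over libraries (SD divided by mean) had a median of 6.98% and ran from 1.54% to 48.7%. That highest value belonged to Hsph1, an Hsp110 gene raised by heat, at 37.1, 33.0, 38.7 and 82.6 CPM. The 3 inducible genes spread more widely than that median, with 22.1% for Dnajb1, 95.7% for Hspa1b and 111% for Hspa1a. Hspa1a had 4.49, 6.09, 5.91 and 32.7 CPM (119, 147, 131 and 804 UMIs), and Hspa1b had 2.60, 4.14, 4.87 and 17.8 CPM (69, 100, 108 and 438 UMIs). Dnajb1, the J-domain partner induced together with them, had 107, 106, 113 and 163 CPM.

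Library 4 was the highest for all 3 inducible genes and for Hsph1. Its Hspa1a level was 7.30 times and its Hspa1b level 6.85 times that of the lowest library. Library 4 was also the highest for Hspa8, Hsp90ab1, Hsp90aa1, Dnaja1, Hspe1 and Hspd1, by smaller margins, whereas it was the lowest for Hspa5 (657 CPM) and Dnajb6 (262 CPM). Its median depth was 3995 UMIs, inside the range of the others. The summed level of 14 immediate early genes that tissue digestion is known to raise, such as Fos and Jun, was 10519.7, 11368, 10353 and 10044 CPM and was the lowest in library 4. What set this library apart was not tested, and results that rest on it are given below with and without it.

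The gates repeated this pattern over libraries for the sum of the inducible genes. Over all cells this sum was mostly Dnajb1, at a mean of 122 CPM, against 12.3 CPM for Hspa1a and 7.36 CPM for Hspa1b. The sum was 109.6, 118, 121 and 215 CPM in the rest gate and 124, 128, 136 and 239.6 CPM in the Ifng gate. It was 132, 101, 106 and 189 CPM in the Foxp3 gate, 105, 99.4, 104 and 149 CPM in the Gzma gate, and 81.8, 93.1, 128 and 145 CPM in the Il17a gate. Library 4 was the highest in every gate, and in libraries 1 to 3 all gates lay between 81.8 and 136 CPM. The constitutive members summed to 8404 ± 541 CPM in the rest, 8586 ± 511 in the Foxp3 gate, 8708 ± 680 in the Ifng gate, 8523 ± 314 in the Gzma gate and 9548 ± 971 in the Il17a gate. In such sums, fewer cells of a type and less RNA per cell cannot be told apart.

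**Figure D2:**
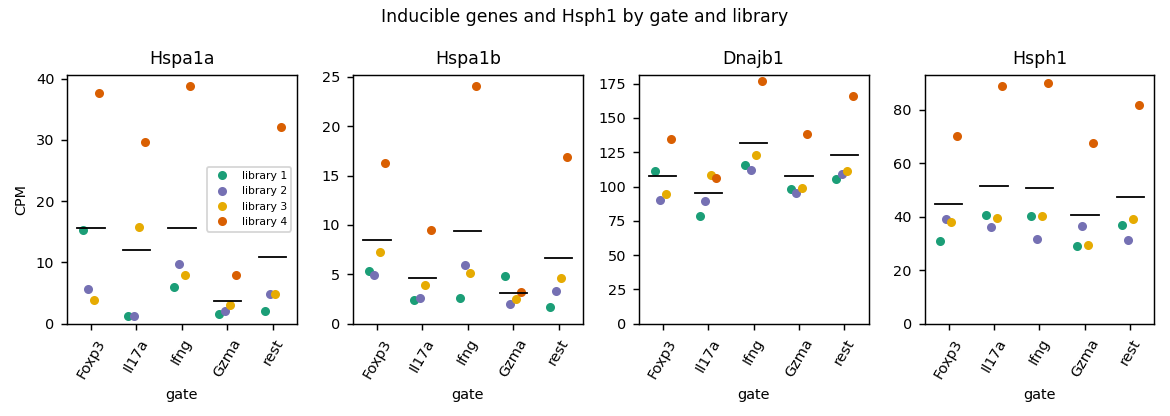
CPM of Hspa1a, Hspa1b, Dnajb1 and Hsph1 in each gate, 1 point per library and a bar for the mean of 4 libraries. For Hsph1 and Dnajb1 in the rest gate library 4 (81.6 and 166 CPM) lies above libraries 1 to 3, and Hspa1a of the Gzma gate stays at or under 7.92 CPM in every library.

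Within a library, Hspa1a and Hspa1b transcripts were concentrated in few cells. After each cell was thinned at random to 2000 UMIs, at least 1 UMI of Hspa1a or Hspa1b was left in 0.855%, 1.24%, 1.25% and 5.61% of the cells of libraries 1 to 4 (without thinning 1.65%, 1.92%, 2.14% and 8.53%). The highest cell held 10 such thinned UMIs. The Fano factor, the variance over cells divided by the mean, which is 1 for pure counting noise, was 2.82 for the pair (2.27 to 3.80 over libraries) although their mean was 0.038 UMIs per cell. The far more abundant Hspa8 and Hsp90ab1 both had 1.87 and Hspa5 had 1.51. Cct4, Cct7, Cct8, Cct2 and Cct5 lay between 0.985 and 1.02, close to counting noise. Dnajb1 had 1.16 and Hsph1 1.13, each found in a larger share of cells (20.5% and 8.07%). No cell type that should lack Hspa1 transcripts was at hand, so the part of these shares that free RNA contributes was not measured.

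The share of cells with an Hspa1 UMI was also taken by gate. In the thinned cells it was 1.15%, 1.53%, 1.31% and 7.28% in the Ifng gate and 0.660%, 1.06%, 1.24% and 5.54% in the rest, so that the Ifng gate was above the rest in each library. In libraries 1 to 3 the share was 1.36%, 2.36% and 2.20% in the Il17a gate and 0.744%, 1.30% and 1.56% in the Foxp3 gate. Both of these gates lay above the rest in libraries 1 to 3 and under it in library 4. In the Gzma gate the shares were 0.735%, 0.903%, 0.533% and 1.38%, and the rise in library 4 was smaller there than in the Foxp3 (4.06%), Il17a (4.65%), Ifng and rest gates. The thinned cells numbered 221, 127, 91 and 129 in the Il17a gate of libraries 1 to 4. In the Foxp3 gate they numbered 403, 461, 384 and 271, and in the Gzma gate 408, 443, 375 and 435. Shares in these gates thus rest on few cells with an Hspa1 UMI, and all shares are given without a test. The gates' median depths, 3374 to 3774.5 UMIs for Gzma, 3706 to 4300 for Ifng and 3519 to 4057 for the rest, overlapped.

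To see which other members went with the inducible pair in the same cells, the 454 cells with a thinned Hspa1a or Hspa1b UMI (45, 67, 64 and 278 in libraries 1 to 4) were compared with the 20297 without. Hspa1a and Hspa1b chose the cells and were left out of the test. The cells with Hspa1 transcripts differed from the others in 7 members: Hsph1, Dnajb1, Hsp90aa1, Hsp90ab1, Hspa8, Hspe1 and Dnaja1 were higher, and no member was lower. This is 7 of the 40 members tested (17.5%), where 1.06% of 10528 genes were called in either direction, 0.275% as higher and 0.788% as lower. No member passed as lower in edgeR or DESeq2, and 12 members had an unadjusted p under 0.05 in edgeR in either direction. The median log2 difference was 0.08 over the members and -0.06 over all genes tested.

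Hsph1 had 122, 127, 141 and 158 CPM in cells with Hspa1 transcripts against 36.2, 28.6, 35.1 and 70.7 CPM in the others. Every library of the first set lay above every library of the second, with a log2 difference of 1.47 ± 0.18 (SE; edgeR quasi-likelihood test, adjusted p = 1.38e-12). DESeq2 called the other 6 members and gave no adjusted p for Hsph1, so Hsph1 was not judged there. Without the library block Hsph1 stood at 1.70 and did not pass (edgeR adjusted p = 0.0669). Dnajb1 had 211, 209, 289 and 313 CPM against 103, 109, 112 and 152 CPM. Here too the sets did not overlap, and the log2 difference was 1.01 ± 0.14 (edgeR adjusted p = 1.15e-10). In library 4 the cells without a thinned Hspa1 UMI were still the highest of the 4 libraries for both genes, so its excess was not limited to the cells with such a UMI.

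Both cytosolic Hsp90 genes were among the 7. Hsp90aa1 had 900.0, 724, 922 and 786 CPM against 457, 408, 428 and 486 CPM, a log2 difference of 0.78 ± 0.09 (edgeR adjusted p = 7.56e-15). Hsp90ab1 had 2356, 2507, 2820.3 and 2637 CPM against 1625, 1546, 1508 and 1852 CPM, a log2 difference of 0.56 ± 0.07. Their ER relative Hsp90b1 did not follow, at means of 374 and 375 CPM. Among the Hsp70 genes, constitutive Hspa8 had 3089, 2552, 2672 and 2921 CPM against 1827, 1661, 1647 and 2094 CPM, a log2 difference of 0.53 ± 0.07. The ER form Hspa5 overlapped between the sets, with 1122, 1022, 734 and 651 CPM against 867, 793, 707 and 666, and was not called.

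Hspe1, the lid of the mitochondrial chaperonin, had 356, 381, 344 and 509 CPM against 275, 259, 257 and 323 CPM (log2 difference 0.46 ± 0.11, edgeR adjusted p = 0.0045). Its partner Hspd1 showed the same size of difference, 0.46, at means of 176 and 123 CPM but did not pass. Dnaja1 had 700.0, 559.7, 508 and 567 CPM against 437, 386, 359.7 and 463 CPM (log2 difference 0.37 ± 0.10, edgeR adjusted p = 0.0197). Both called sets were free of overlap. None of the 7 CCT genes tested was called, with a median log2 difference of 0.08. Of the 4 called genes with a promoter window, the 2-unit element was in Hsph1, Hspe1 and Dnaja1 and not in Dnajb1.

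**Figure D3:**
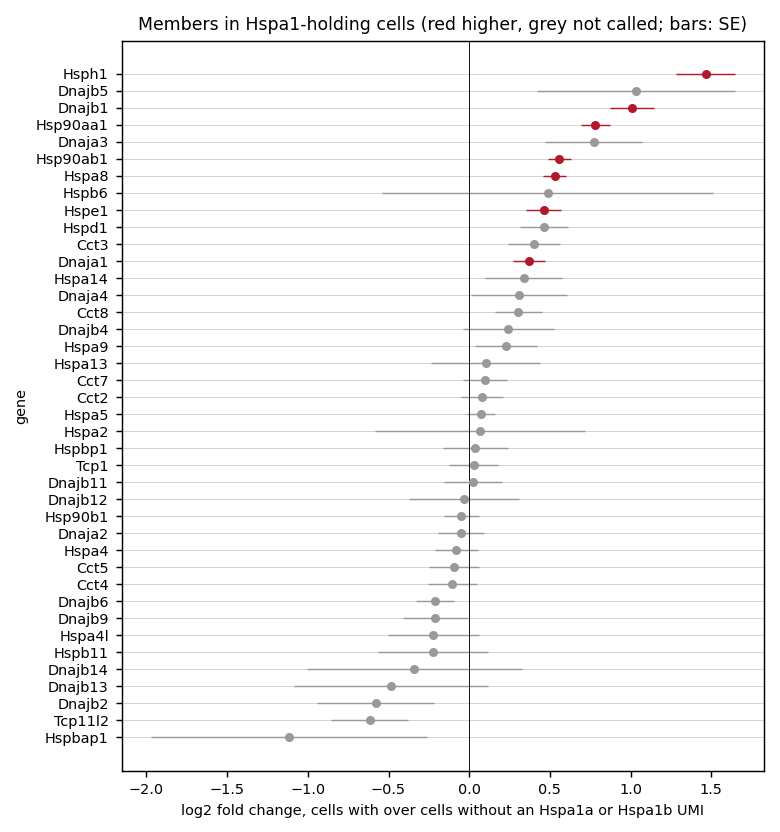
Log2 difference between cells with and without a thinned Hspa1a or Hspa1b UMI for the 40 tested members, points with SE from edgeR. The 7 members called higher run from Hsph1 at 1.47 down to Dnaja1 at 0.37, and no member was called lower.

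The largest of these differences were also seen without library 4. With it left out, Hsph1 stood at 1.87, Dnajb1 at 1.01, Hsp90aa1 at 0.85, Hsp90ab1 at 0.60 and Hspa8 at 0.57 on the log2 scale, all past the threshold in edgeR, while Hspe1 and Dnaja1 were no longer called. Dnaja1 also failed to pass without library 1, 2 or 3. Hspe1 also failed without library 2 (edgeR adjusted p = 0.0513) and without cycling-marker cells (edgeR adjusted p = 0.206). Pooled over libraries, the cells with Hspa1 transcripts were somewhat deeper (median 4244.5 against 3896 UMIs before thinning) and held a similar mitochondrial share (2.15% against 2.29%). They came more often from the Ifng gate (39.0% against 30.8%) and less often from the Gzma gate (3.30% against 8.11%), with no test of these shares. Library 4 gave 278 of these 454 cells. Depth went the other way in library 2 (3623 against 3688.5 UMIs), while both gate shares kept their direction in each library. Within the rest gate alone, a selection chosen with the values known, 4 members were called: Hsph1 at 1.21, Dnajb1 at 0.84, Hsp90aa1 at 0.63 and Hsp90ab1 at 0.40. Hspa8 stood at 0.29 there (edgeR adjusted p = 0.323). Of the listed partners of these chaperones, Chordc1, an Hsp90 co-chaperone raised by heat, was the only co-chaperone of 19 tested to pass (0.59 ± 0.17, edgeR adjusted p = 0.0449, higher in 3 of 4 libraries, and 0.66 with adjusted p = 0.410 without library 4). Of 14 immediate early genes 3 were higher (Zfp36 at 0.55 ± 0.09, Jun at 0.57 ± 0.10 and Egr1 at 0.68 ± 0.15) and 1 was lower. Within the rest gate alone Jun stood at 0.68 and passed (edgeR adjusted p = 0.0053). Zfp36 at 0.14 and Egr1 at 0.30 did not pass there (edgeR adjusted p = 0.974 and 0.953). The lists of DnaJC genes, prefoldins, heat shock factors, ER folding genes, mitochondrial folding genes and proteasome subunits gave no call.

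The gates were then compared with the rest in 1 model of 20 sums, in which the library was a block. Of the 62 members, 41 passed the filter on low counts and were tested, none of them a small heat shock protein. The 4 comparisons share the rest gate as their reference, so their values are given side by side and not as independent results.

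In the Foxp3 gate 7 members were higher and 6 were lower, 31.7% of those tested, a share near the 33.8% of all 9864 genes called (18.3% higher and 15.6% lower). Among cells of 3000 to 6000 UMIs 7 were higher and 12 lower of 39 tested, where 2865 of 8587 genes were called, and without the library block 3 were higher and 3 lower. The gate's median depth was 4261 to 5091 UMIs, against 3519 to 4057 in the rest. Cells with markers of other cell types were 56.1% to 63.9% of the gate and 18.7% to 22.2% of the rest. Without these cells 6 members were higher and 5 lower of 40 tested, where 1991 of 8926 genes were called. In the fit of all cells none of the 7 CCT genes passed, and neither did Hspd1 or Hspe1. The median log2 difference was 0.02 over the members and -0.01 over all genes.

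The largest rises were in 2 J-domain genes of low level. Dnajb13, better known from cilia and sperm tails, had 23.9, 21.5, 20.4 and 16.3 CPM in the Foxp3 gate against 7.73, 9.53, 8.62 and 8.82 CPM in the rest. The groups did not overlap, and the log2 difference was 1.27 ± 0.20 (edgeR adjusted p = 1.99e-05). Dnajb13 (chromosome 7, 100501716 to 100514960, minus strand) overlaps the end of Ucp2 (100493337 to 100502020, plus strand), an abundant gene. The shared stretch lies at the end of both genes, away from their starts. Only reads in that stretch cannot be told apart where counting ignores the strand, and how many fell there was not measured. Ucp2 itself was lower in the Foxp3 gate, at -0.22 ± 0.04. Dnajb14, an ER membrane J-domain protein, had 16.1, 14.7, 15.6 and 17.3 CPM against 7.31, 8.40, 7.01 and 7.54 CPM, again without overlap, a log2 difference of 1.09 ± 0.14 (edgeR adjusted p = 1.38e-06). Its level lay under the 20 CPM asked of named genes, and it was named after its values were seen.

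Smaller rises were found for Hspa13, a microsomal Hsp70 relative (25.2, 27.5, 26.3 and 26.9 against 21.9, 21.1, 17.3 and 22.3 CPM, 0.38 ± 0.11), and for Dnaja1 (497, 477, 421 and 481 against 426, 362, 343 and 454 CPM, 0.28 ± 0.05). Hspa13 did not overlap between gates and Dnaja1 did. Hsp90ab1 was higher by 0.17 ± 0.05 (edgeR adjusted p = 0.0056). That value ended at -0.02 when cells with markers of other cell types were left out and at -0.01 among cells of 3000 to 6000 UMIs. Tcp11l2, a gene of the list by name only, was higher by 0.25 ± 0.05, and the testis-enriched Hsp70 gene Hspa2 by 0.68 ± 0.24.

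First among the members lower in the Foxp3 gate was Dnajb9, an ER J-domain protein that recruits Hspa5 to misfolded chains, with 71.4, 51.3, 56.0 and 46.8 CPM against 106, 86.6, 65.8 and 70.1 CPM in the rest. It was lower in 4 of 4 libraries although the gates' ranges overlapped, and the log2 difference was -0.52 ± 0.09 (edgeR adjusted p = 6.04e-05). Hspbp1, a nucleotide exchange factor of Hsp70, had 47.4, 56.2, 57.9 and 54.4 CPM against 68.1, 79.4, 80.1 and 85.1 CPM, with no overlap and a log2 difference of -0.51 ± 0.08. Dnajb6 had 255, 257, 238 and 191 CPM against 374, 342, 263 and 267 CPM, also without overlap (-0.37 ± 0.07). Dnaja3, a mitochondrial J-domain gene that overlaps Coro7 on the other strand, Dnajb4 and Hspa4 were lower by smaller or less even amounts (-0.40 ± 0.13, -0.37 ± 0.12 in 3 of 4 libraries, and -0.16 ± 0.06).

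The inducible genes gave no call in the Foxp3 gate. Hspa1a had 15.3, 5.66, 3.89 and 37.6 CPM there against 2.16, 4.85, 4.83 and 32.0 CPM in the rest (0.68 ± 0.31, edgeR adjusted p = 0.093). The sign of this gene was not stable: it was -2.01 among cells of 3000 to 6000 UMIs (edgeR adjusted p = 0.0041) and 1.13 with stricter gates (edgeR adjusted p = 0.0141). Dnajb1 had 111, 90.2, 94.9 and 135 CPM against 106, 109, 112 and 166 CPM and was not called.

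Among the partner lists in the Foxp3 gate, 4 DnaJC genes of 21 tested were lower and 1 higher, including Dnajc3, an ER co-chaperone that restrains the stress kinase Eif2ak3, at -0.81 ± 0.06, Dnajc15 at -0.79 ± 0.08 and Dnajc1 at 0.43 ± 0.08. Of 17 ER folding genes 4 were lower, such as the stress sensor Ern1 (-0.39 ± 0.07) and the stress factor Ddit3 (-0.33 ± 0.08), and the ER chaperone Calr was higher (0.28 ± 0.07). The heat shock factor Hsf1 stood at -0.25 ± 0.09 (edgeR adjusted p = 0.0325) while Hsbp1, which binds and restrains it, was higher by 0.18 ± 0.05. Of 14 immediate early genes 5 were higher and 5 lower, from Zfp36 at 1.25 ± 0.07 and Dusp1 at 0.72 ± 0.08 to Btg2 at -0.79 ± 0.06. No proteasome gene of 14 was called. Marker sums of other cell types also differed here: the epithelial list summed to 84.9 to 108 CPM in the Foxp3 gate against 15.4 to 23.4 in the rest, of which Epcam made up 74.7 to 103 while Vil1 and Krt20 were at 0, and the myeloid list to 215 to 246 against 148 to 165, mostly Cst3, with Adgre1 at 0. Their part in the results was not tested, beyond the values without marker-bearing cells given here and at the end.

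**Figure D4:**
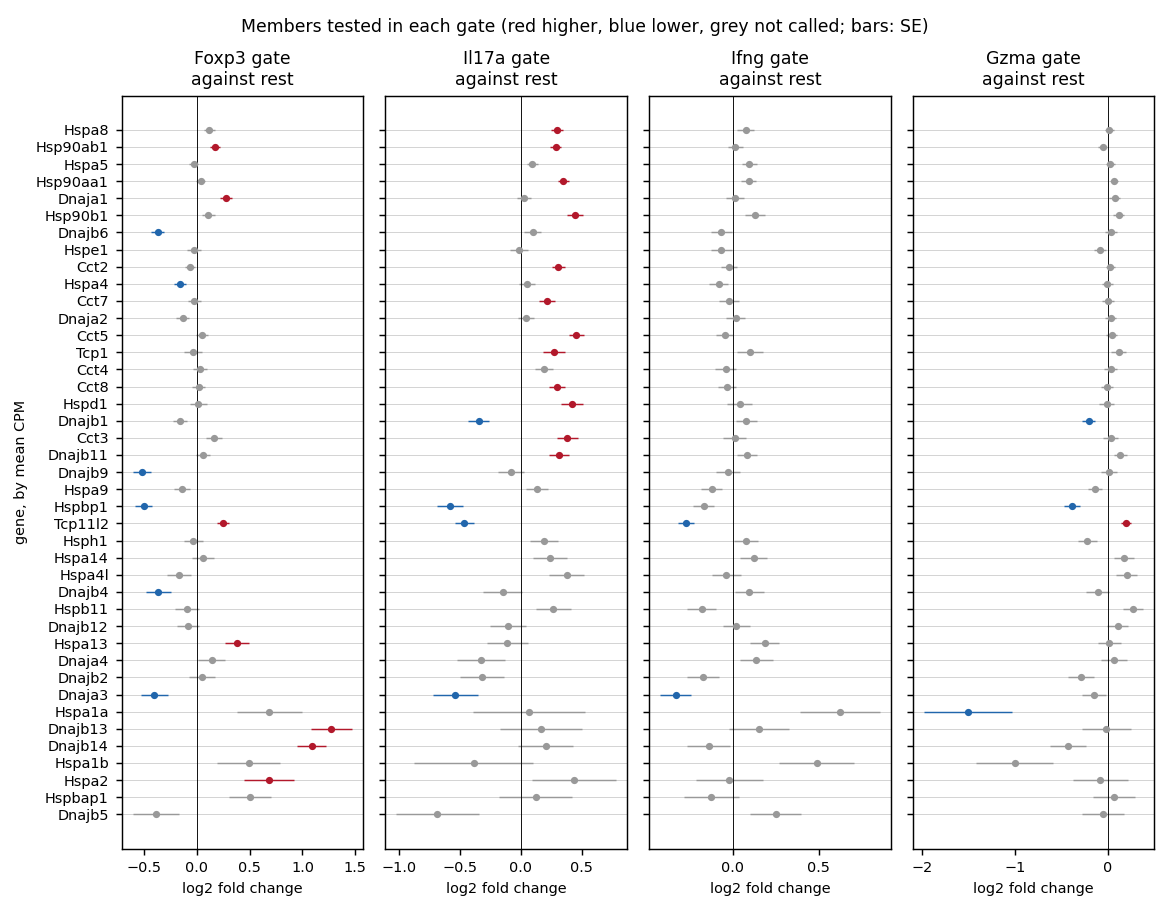
Log2 difference of each of the 41 tested members from the rest gate in the Foxp3, Il17a, Ifng and Gzma gates, points with SE from edgeR, red where called higher and blue where called lower. Calls number 13 in the Foxp3 gate, 16 in the Il17a gate, 2 in the Ifng gate and 4 in the Gzma gate, and the Il17a calls are mostly on the higher side.

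The Il17a gate had the most called members, with 12 higher and 4 lower (39.0% of those tested), against 26.5% of all genes called, 15.4% higher and 11.1% lower. The higher genes covered the CCT ring (Cct2, Cct3, Cct5, Cct7, Cct8 and Tcp1, 6 of 7 tested), all 3 Hsp90 genes, the cytosolic Hsp70 Hspa8, the mitochondrial chaperonin Hspd1 and the ER J-domain gene Dnajb11. The median log2 difference was 0.13 over the members, 0.30 over the CCT genes and -0.03 over all genes. This gate was the smallest, with 227, 131, 92 and 130 cells.

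Cct5, a subunit of the ring, had 209, 202, 213 and 216 CPM in the Il17a gate against 164, 159.6, 156 and 154 CPM in the rest. The gates did not overlap, and the log2 difference was 0.46 ± 0.06 (edgeR adjusted p = 7.71e-06). Cct2 had 255, 235, 263 and 270.1 CPM against 219, 208, 217 and 212 CPM, likewise without overlap (0.31 ± 0.05). The CCT genes together summed to 1294, 1189, 1405 and 1456 CPM against 1133, 1079.5, 1126 and 1150.4 CPM. Cct4 was higher by a smaller amount that did not pass (0.19 ± 0.07, edgeR adjusted p = 0.068).

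Hsp90b1, the ER form of Hsp90, had 453, 439.7, 514 and 567 CPM against 389, 380.0, 354 and 372 CPM, with no overlap and a log2 difference of 0.44 ± 0.06 (edgeR adjusted p = 1.99e-05). Hsp90aa1 had 545, 516, 525 and 669 CPM against 455, 416, 439.8 and 518 CPM (0.35 ± 0.05), and its highest rest value, in library 4, lay inside the range of the Il17a gate. Hspd1 had 166, 138, 168 and 237 CPM against 136, 122, 134 and 157 CPM (0.42 ± 0.09), with overlapping ranges. Its partner Hspe1 had 273, 226, 259 and 364 CPM against 287, 273, 277 and 344 CPM and was not called (-0.02 ± 0.07). Hspa8 was higher by 0.30 ± 0.05, with 2059.9, 1946, 1928 and 2874 against 1862, 1672, 1686 and 2155 CPM, whereas ER Hspa5 was not called (0.09 ± 0.05).

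On the lower side were Hspbp1, with 52.1, 36.2, 51.4 and 54.0 CPM against 68.1, 79.4, 80.1 and 85.1 CPM (-0.58 ± 0.11, no overlap), Tcp11l2 (-0.47 ± 0.08), Dnaja3 (-0.54 ± 0.19) and the inducible Dnajb1. Dnajb1 had 78.2, 89.2, 109 and 106 CPM against 106, 109, 112 and 166 CPM in the rest. It was lower in 4 of 4 libraries although the ranges met, at -0.35 ± 0.08 (edgeR adjusted p = 0.0032). Without library 4 it stood at -0.26 and did not pass (edgeR adjusted p = 0.069).

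Cycling markers, depth and markers of other cell types moved with these calls. Cells with at least 2 UMIs of cycling markers made up 40.8% ± 9.0 of the Il17a gate and 19.2% ± 2.36 of the rest, and the summed cycling list lay at 1140 to 1678 CPM against 381 to 467 CPM. The gate's median depth was 3785.5 to 6084 UMIs, against 3519 to 4057 in the rest. Cells with markers of other cell types were 26.1% to 51.5% of the gate against 18.7% to 22.2% of the rest, and the stromal or endothelial list summed to 51.7 to 84.8 against 42.3 to 44.4 CPM. Without these cells 5 members were higher and 0 lower, with 928 genes called in all. With cycling-marker cells left out of both gates, 2 members were higher and none lower. Hspa8 was the only one of the 16 genes still called, at 0.17 ± 0.05 (edgeR adjusted p = 0.0235), and Dnajb6 was called anew. Among cells of 3000 to 6000 UMIs 1 member, Hspa5, was higher and none of the 16 was called. All genes called fell as well, from 2615 to 789 and 555. Of the 6 ring genes, Cct2 stood at 0.01 and 0.13, Cct8 at 0.01 and -0.16, Cct3 at 0.10 and 0.22 and Cct5 at 0.23 and 0.07 in these selections, while Dnajb1 kept its size at -0.37 and -0.41 without passing (edgeR adjusted p = 0.139 and 0.109). All of these selections also left fewer cells.

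**Figure D5:**
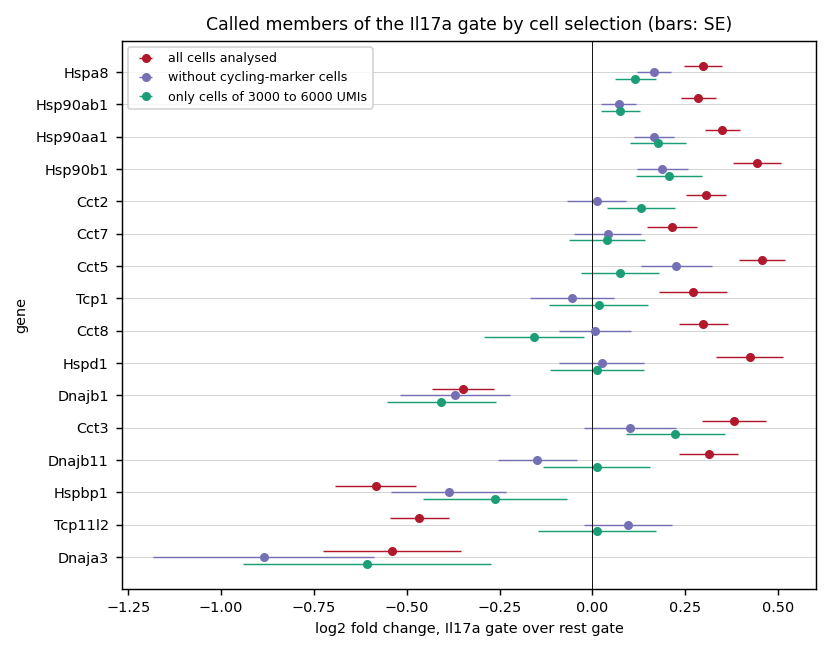
Log2 difference between the Il17a gate and the rest for the 16 members called in all cells, in 3 selections: all cells, cells without cycling markers and cells of 3000 to 6000 UMIs, with SE from edgeR. Values of the CCT genes move towards 0 in the last 2 selections, and Dnajb1 stays between -0.35 and -0.41.

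In the partner lists of the Il17a gate, 13 of 14 proteasome genes were higher and none lower, led by Psma4 (0.67 ± 0.06) and Psmb7 (0.62 ± 0.08), with a list median of 0.32. Of 17 ER folding genes 11 were higher and 1 lower, with Manf at 0.51 ± 0.07, the disulfide isomerase P4hb at 0.43 ± 0.07, the stress sensor Atf6 at 0.71 ± 0.12 and a list median of 0.28. Of 18 co-chaperones 2 were higher, Stip1, which links Hsp70 to Hsp90, at 0.30 ± 0.10 and Fkbp5 at 0.50 ± 0.16. Of 21 DnaJC genes 3 were higher, with Dnajc9, a histone chaperone of dividing cells, at 0.71 ± 0.10. No heat shock factor was called. Most of these named genes were no longer called without cycling-marker cells. Stip1 then stood at -0.06, Dnajc9 at -0.01, Manf at 0.10, P4hb at 0.18, Psma4 at 0.29, Psmb7 at 0.16 and Fkbp5 at 0.28, whereas Atf6 still passed at 0.70 (edgeR adjusted p = 0.0471).

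Set against the Ifng gate in place of the rest, the Il17a gate had 15 members higher and 2 lower (41.5% of 41), where 26.1% of all genes were called, 15.1% higher and 11.0% lower. The same Il17a sums enter both comparisons. Hspa9, the mitochondrial Hsp70 (0.25 ± 0.09), Hspa4l (0.42 ± 0.15), Hspb11 (0.45 ± 0.15) and Cct4 (0.23 ± 0.07) were called here and Tcp1 was not. Dnajb1 was lower by a log2 difference of -0.43 ± 0.08 (edgeR adjusted p = 5.02e-04), at 78.2, 89.2, 109 and 106 CPM against 116, 112, 123 and 177 CPM, with no overlap. Without cycling-marker cells 2 members were higher and 1 lower, of which Cct5 and Dnajb1 had been called in all cells, and among cells of 3000 to 6000 UMIs only Dnajb1 was called. Dnajb1 was therefore the member whose difference between these gates passed in all 3 selections.

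The Ifng gate, the largest after the rest with 6592 cells, differed little from the rest in these genes. No member was higher and 2 were lower (4.88% of 41), where 10.7% of all genes were called, 5.42% higher and 5.27% lower. The 2 were Tcp11l2, at 68.0, 63.8, 57.9 and 42.2 CPM against 75.7, 76.9, 68.7 and 54.4 CPM (-0.27 ± 0.04, edgeR adjusted p = 1.77e-04), and Dnaja3 (-0.33 ± 0.09, edgeR adjusted p = 0.0201). An unadjusted p under 0.05 in edgeR was reached by 10 members, and DESeq2 called 1, Hsp90aa1, as higher. Hspa1a had 5.96, 9.83, 7.95 and 38.8 CPM against 2.16, 4.85, 4.83 and 32.0 CPM. It was higher in 4 of 4 libraries, by 0.62 ± 0.23, but did not pass (edgeR adjusted p = 0.0984), and neither did Hspa1b (0.49 ± 0.22, edgeR adjusted p = 0.184). Among cells of 3000 to 6000 UMIs Hspa1a did pass, at 0.58 (edgeR adjusted p = 0.038), as it did with no filter on low counts, at 0.61. No ER folding gene and no co-chaperone was called.

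In the Gzma gate 1 member was higher and 3 were lower (9.76% of 41), where 15.9% of all genes were called, 8.47% higher and 7.47% lower. Tcp11l2 was higher, with 89.8, 85.0, 78.9 and 66.0 CPM against 75.7, 76.9, 68.7 and 54.4 CPM (0.20 ± 0.06). Hspa1a was lower, with 1.61, 2.05, 3.08 and 7.92 CPM against 2.16, 4.85, 4.83 and 32.0 CPM, a log2 difference of -1.51 ± 0.47 (edgeR adjusted p = 0.0314). Dnajb1 was lower, with 98.5, 95.3, 98.6 and 138 CPM against 106, 109, 112 and 166 CPM (-0.21 ± 0.07, edgeR adjusted p = 0.0498). Both inducible genes were lower in 4 of 4 libraries with overlapping ranges. Hspbp1 was lower as well, by a log2 difference of -0.39 ± 0.08.

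These calls of the Gzma gate depended on single libraries. Without library 4 no member passed in either direction: Hspa1a stood at -0.82 (edgeR adjusted p = 0.537), Dnajb1 at -0.17 (edgeR adjusted p = 0.175) and Hspbp1 at -0.30 (edgeR adjusted p = 0.0508). Dnajb1 failed to pass whichever library was left out. Tcp11l2 passed only without library 2 (edgeR adjusted p = 0.0442), and Hspa1a also failed without library 2, at -1.56 (edgeR adjusted p = 0.0685). Hspa1b, at 4.84, 2.05, 2.46 and 3.17 CPM in the Gzma gate and 1.74, 3.29, 4.64 and 16.9 CPM in the rest, was higher in library 1 and lower in the other 3. Of the 14 immediate early genes 7 were lower in this gate and none higher, among them Atf3 (-1.49 ± 0.23), Socs3 (-0.50 ± 0.09) and Fosb (-0.43 ± 0.09), with a list median of -0.33. The ER stress sensor Ern1 was lower too (-0.55 ± 0.08), 1 of the 2 genes called lower among 17 of ER folding.

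Tcp11l2, Hspbp1 and Dnaja3 were the members called in 3 or more of the gates. Dnaja3 was called lower in the Foxp3, Il17a and Ifng gates. Its call was lost without any 1 of libraries 2, 3 and 4 for Foxp3 (edgeR adjusted p = 0.0547, 0.0587 and 0.145), without 1, 3 or 4 for Il17a (0.194, 0.0862 and 0.141), and without 3 or 4 for Ifng (0.133 and 0.111). Hspbp1 was called lower in the Foxp3, Il17a and Gzma gates and stood at -0.17 in the Ifng gate, with 68.4, 65.3, 72.5 and 74.5 CPM there. Tcp11l2 was called in all 4, higher in the Foxp3 and Gzma gates and lower in the Il17a and Ifng gates. In the Il17a gate its sign turned to 0.10 without cycling-marker cells and 0.01 among cells of 3000 to 6000 UMIs. All 4 of these comparisons use the same rest cells.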

How the data were processed

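The study consists of 4 libraries of sorted intestinal CD4+ T cells, all of 1 group and read from the 5′ end. Each library came as a deposited table of raw UMI counts. The submitters' processing notes name Cell Ranger 3.0.2 and the build mm10. How reads were assigned by strand or between near-identical genes is not given in the sources used here. The matrices held 5763, 6013, 5669 and 5459 barcodes, none under 502 UMIs.

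Cells were kept if they had 500 genes or more, 1000 UMIs or more and a mitochondrial share up to 10% (22534 of 22904), and the highest Scrublet doublet scores (scanpy 1.11.5) were removed at 0.8% per 1000 barcodes, 1033 cells, which left 21501. UMIs were summed per library and gate into 20 sums and tested with edgeR 4.0.16 (quasi-likelihood F test in R 4.3.3, with TMM factors, the filterByExpr filter and the library as a block), with Benjamini-Hochberg adjustment at 0.05 over all genes tested and the gating genes left out. The pairing of sums by library comes from the design, since all gates of a library are cells of the same sample. Cells with Hspa1 transcripts were compared in 8 sums of cells thinned to 2000 UMIs, 750 shallower cells left out. SE is the size of the log2 difference divided by the square root of F. On simulated data with 200 genes changed by 1 on the log2 scale, edgeR recovered 100% of them for the Foxp3 comparison (9672 genes) and 93.5% for the Hspa1 comparison (10523 genes). Only genes of higher level were changed, and 1 small fixed spread was used for all genes. Smaller differences and genes of low level were therefore not covered.

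Named genes were the 3 inducible ones, the 2 highest of each role, up to 6 called higher and 6 lower per comparison (same direction in 4 of 4 libraries, at least 20 CPM) and up to 3 per partner list with the smallest adjusted p. Any other name was chosen after its values were seen. The members, lists and rules were chosen with earlier results of these data known. Alternatives were DESeq2 1.42.0, library size alone, no filter, no library block, no doublet removal, cells without cycling markers or markers of other cell types (at least 2 UMIs of such a list), stricter gates (at least 2 UMIs, 20 for Gzma), cells of 3000 to 6000 UMIs, each library left out, at least 2 thinned Hspa1 UMIs and, added after the data were seen, the rest gate alone.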

Additional observations from a re-analysis of the deposited data

Results flagged for a closer look

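In 6 of 83 groups of 4 libraries, the highest or lowest library lay apart from the others by more of the group's range than Dixon's 95% limit for 4 values allows. Chance flags about 1 in 20 groups. In 5 of them it was library 4 that was high: for Dnajb1 over all cells (163 CPM), for Hsph1 over all cells (82.6 CPM), and for the 3 inducible genes summed in the Ifng gate (239.6 CPM), the Gzma gate (149 CPM) and the rest gate (215 CPM). These groups share cells and genes and are not independent of each other. The sixth was the CCT sum in the Gzma gate, where library 1 was low at 1086 CPM and the other libraries lay between 1183 and 1190.3 CPM. The causes were not tested.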

How the results depend on the processing

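Of 123 single-gene results, 1211 of 1584 alternative values kept direction and call, 327 kept the direction but no longer passed, 12 passed newly and 34 changed sign. Cell selection and the block mattered most to the counts of members called. Without the replicate block, which ignores that gates of a library are paired, members called were 3 higher and 3 lower for Foxp3, 1 lower for Il17a, 0 lower for Ifng, 0 higher and 1 lower for Gzma, 1 lower for Il17a against Ifng and 4 higher for Hspa1 cells, and all genes called were 388 for Ifng, 981 for Gzma and 6 for Hspa1 cells. The block changed the other counts by less than 1.5 times. Without cycling-marker cells, members were 2 higher and 0 lower for Il17a, 1 lower for Ifng, and 2 higher and 1 lower for Il17a against Ifng, with 789, 1068 and 74 of all genes called for Il17a, Il17a against Ifng and Hspa1 cells. Without other-type marker cells, they were 5 higher and 0 lower for Il17a and 2 higher and 1 lower for Il17a against Ifng, with 1991, 928, 1033 and 65 of all genes for Foxp3, Il17a, Il17a against Ifng and Hspa1 cells. Among cells of 3000 to 6000 UMIs, they were 12 lower for Foxp3, 1 higher and 0 lower for Il17a, 2 higher and 1 lower for Ifng, and 0 higher and 1 lower for Il17a against Ifng, with 555 and 711 of all genes for Il17a and Il17a against Ifng. These selections also test fewer cells.

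Library size alone gave 9 higher and 5 lower for Il17a against Ifng, no filter 2 higher for Ifng, 0 higher for Gzma and 4 lower for Il17a against Ifng, and DESeq2 1 higher for Ifng and 28 of all genes for Hspa1 cells. With at least 2 thinned UMIs, Hspa1 cells gave 3 higher members and 24 genes, and within the rest gate 4 and 50. With library size alone, the share of calls that were higher moved from 58.0% to 46.6% for Il17a, from 57.9% to 42.3% for Il17a against Ifng and from 25.9% to 46.5% for Hspa1 cells (DESeq2 39.3%). Leaving out each library in turn gave 3 to 5 members lower for Foxp3, 9 to 13 higher and 2 to 6 lower for Il17a, 0 higher and 1 to 3 lower for Ifng (640 to 851 of all genes), 0 to 2 higher and 0 to 3 lower for Gzma, 9 to 14 higher and 2 to 3 lower for Il17a against Ifng, and 5 to 6 higher for Hspa1 cells (56 to 85 of all genes). Constitutive members summed to 7716 CPM (3000 to 6000 UMIs) and 7853 CPM (without cycling-marker cells) in the Foxp3 gate, 8448 and 8314 in the Il17a gate, and 8181 and 7899 in the Gzma gate.

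Signs changed on the log2 scale as follows. For Il17a against the rest without cycling-marker cells: Dnajb11 -0.15, Dnajc2 -0.0807, Dnajc9 -0.0142, Pfdn4 -0.16, Pfdn5 0.0063, Psma7 -0.0099, Stip1 -0.0604 and Tcp11l2 0.0963. For the same gate at 3000 to 6000 UMIs: Dnajc2 -0.30, Pfdn4 -0.17, Psma7 -0.0600, Stip1 -0.31 and Tcp11l2 0.0135. For Il17a against Ifng without cycling-marker cells: Dnajc9 -0.14, Pfdn4 -0.0498, Pfdn5 0.0363 and Psma7 -0.0084, and at 3000 to 6000 UMIs: Cct8 -0.0913, Pfdn4 -0.20, Pfdn5 0.0038, Psma4 -0.0251 and Psma7 -0.11. For Foxp3: Hsp90ab1 -0.0237 without other-type marker cells, and -0.01 at 3000 to 6000 UMIs, where Hspa1a was -2.01. With no call on either side, Hspa1a of the Foxp3 gate was -0.0977 without cycling-marker cells and Hspa1b -0.52 without other-type marker cells. Likewise in the Il17a gate, Hspa1a was -0.43 without cycling-marker cells, -0.53 at 3000 to 6000 UMIs, -0.0411 with no doublet removal and -0.0108 with no replicate block, and Hspa1b was 0.0814 without other-type marker cells. Leaving out each library there gave -0.21 (without library 3) to 0.18 for Hspa1a and -0.59 to 0.0072 (without library 4) for Hspa1b. The cause was not tested. Depth limits mainly Hspa1a and Hspa1b, whose gate sums hold few UMIs.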

Other observations

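In edgeR 29 genes were higher in the cells with an Hspa1 transcript. DESeq2 called 11 as higher, 6 of them members, and 17 as lower. Without the library block 6 genes were higher, 4 of them members, and 0 were lower. Outside the chaperones, the edgeR calls gave 22 further higher genes, named here after their values were seen. Among them were the chemokines and cytokines Ccl1 (log2 difference 2.31 ± 0.33, edgeR adjusted p = 1.46e-09), Il22 (1.24 ± 0.19) and Xcl1 (0.57 ± 0.10), the type 1 helper cell receptor gene Il12rb2 (0.57 ± 0.12) and the opioid precursor Penk (0.89 ± 0.17). Also higher were Isg15 (0.50 ± 0.11), Ifitm3 (1.21 ± 0.33), Ifitm2 (0.85 ± 0.23), Bst2 (0.51 ± 0.14) and Parp14 (0.64 ± 0.18), each known to respond to interferon, a group for which no list was tested. Gm10501, antisense to the neighbouring Hspa1l on chromosome 17, stood at 2.99 ± 0.81, on 8 UMIs in cells with Hspa1 transcripts and 47 in the others. On the lower side were 83 genes, such as Gzma (-0.99 ± 0.08), the chemokine Ccl5 (-1.02 ± 0.07) and the checkpoint receptor Ctla4 (-0.71 ± 0.09). More of the Hspa1 cells came from the Ifng gate and fewer from the Gzma gate, as given above, and the part of this in these values was not tested.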
